A study of Mus musculus with 30 samples.

Results

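The mRNAs of 9 liver enzymes that break down amino acids (*Tat*, *Hpd*, *Hgd*, *Tdo2*, *Hal*, *Sds*, *Agxt*, *Cth* and *Gls2*) were followed in the livers of mice that lack hepatocyte CEBPA. The members were found by their gene symbols, which matched 9 of the 55450 rows of the count table. Liver RNA was sequenced from male mice in 3 experiments, each with 5 Cre- mice (*Cebpa* fl/fl) and 5 Cre+ mice, 1 stranded poly(A) library per mouse and 30 libraries in all. In HFCFD2W the Cre+ mice were *Cebpa* ΔHep, in which a constitutive Albumin-cre deletes the floxed gene, and both genotypes ate a diet rich in fat, cholesterol and fructose (HFCFD) for 2 weeks. In the other two experiments the Cre+ mice were *Cebpa* ΔHep,ERT2, which carry Albumin-ERT2-cre, a Cre that acts after tamoxifen. Per the labels both genotypes of HFCFD8W+T10D had 8 weeks of HFCFD with 10 days of tamoxifen, and both genotypes of HFCFD12W+T10W had 12 weeks of HFCFD followed by 10 weeks of tamoxifen. The study's methods give the latter as a diet kept up for 22 weeks, through the tamoxifen. Ages are not given in the labels. The floxed allele was carried by all 30 mice, the strain was backcrossed to C57BL/6N, and every group ate HFCFD. The Cre line, the length of the diet, tamoxifen and the experiment change together, so a difference between experiments cannot be assigned to one of them and these cannot be told apart.

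Hepatocytes are the main site at which surplus amino acids are stripped of nitrogen, and the carbon that remains is burned or turned into glucose. Most of these enzymes are made mainly in liver, several also in kidney, and many rise with protein feeding, fasting, glucagon or glucocorticoids. CEBPA, a leucine zipper transcription factor, is one of the factors known for keeping genes of mature hepatocytes on. Tyrosine is taken apart in sequence by TAT, the tyrosine aminotransferase, HPD, the 4-hydroxyphenylpyruvate dioxygenase, and HGD, the homogentisate dioxygenase. TDO2 opens the tryptophan and kynurenine path, HAL removes ammonia from histidine, SDS converts serine to pyruvate, AGXT clears glyoxylate with alanine as the amino donor, CTH makes cysteine from cystathionine, and GLS2 is the liver form of glutaminase.

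RefSeq promoter windows of GRCm38.p6 were at hand for 6 of the 9 members (*Tat*, *Tdo2*, *Hpd*, *Hal*, *Agxt* and *Hgd*). The 250 bases before the start of transcription were searched for the letters TTGCNNAA on both strands, the paired half-sites to which C/EBP proteins bind. The letters were found in 2 of the 6 windows, *Hal* and *Hgd*, against 9.56% of the 32851 mouse windows of this length. A match describes the letters only. The windows of these 2 genes are shown with the matched letters in capitals, beside those of *Tat*, the only member that was higher in a Cre+ group, and *Hpd*, the member with the highest mean TPM in each Cre- group.
Hal, chr10:93488518-93488767, + strand: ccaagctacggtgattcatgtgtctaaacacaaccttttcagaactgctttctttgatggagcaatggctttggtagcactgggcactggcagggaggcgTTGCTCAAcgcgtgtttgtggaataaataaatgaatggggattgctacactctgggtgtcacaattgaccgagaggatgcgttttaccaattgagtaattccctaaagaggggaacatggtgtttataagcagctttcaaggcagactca
Hgd, chr16:37579903-37580152, + strand: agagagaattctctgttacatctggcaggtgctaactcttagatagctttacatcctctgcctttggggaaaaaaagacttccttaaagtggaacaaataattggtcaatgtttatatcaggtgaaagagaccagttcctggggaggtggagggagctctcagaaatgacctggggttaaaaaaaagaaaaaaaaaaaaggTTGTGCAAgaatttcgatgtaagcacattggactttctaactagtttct
Tat, chr8:109990186-109990435, + strand: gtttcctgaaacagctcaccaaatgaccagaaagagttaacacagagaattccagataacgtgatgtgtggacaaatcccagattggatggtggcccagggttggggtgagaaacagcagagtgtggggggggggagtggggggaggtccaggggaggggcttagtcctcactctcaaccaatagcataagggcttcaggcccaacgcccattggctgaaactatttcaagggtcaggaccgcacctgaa
Hpd, chr5:123182724-123182973, - strand: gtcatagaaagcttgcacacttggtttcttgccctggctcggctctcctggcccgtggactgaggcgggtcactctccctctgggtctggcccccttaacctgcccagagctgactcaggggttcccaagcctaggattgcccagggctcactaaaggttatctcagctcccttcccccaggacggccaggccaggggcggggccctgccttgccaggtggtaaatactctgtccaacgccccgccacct
The match of *Hal* began 150 bases and that of *Hgd* 49 bases before the start.

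Values are in CPM, expected counts scaled to a common library size with a composition factor (TMM), unless TPM is named. TPM is the authors' unit, scaled by transcript length and without that composition factor. Each log2 fold change is the Cre+ level against the Cre- level, with its standard error (SE), and a gene passed at an adjusted p under 0.05 in edgeR's quasi-likelihood test over all genes tested. Library totals ran from 7996123 to 10257347 counts. *Cebpa* itself (chr7:35119293-35121928, + strand) was at 2.68%, 11.9% and 18.6% of its Cre- level in the Cre+ livers of HFCFD2W, HFCFD8W+T10D and HFCFD12W+T10W, with no overlap of genotypes and an exact two-sided permutation p of 0.00794 in each experiment, the smallest that 5 livers against 5 allow. In bulk liver, fewer hepatocytes and less mRNA per hepatocyte cannot be told apart. The 7 hepatocyte markers (*Alb*, *Ttr*, *Apoa1*, *Apoh*, *Trf*, *Fga* and *Ahsg*) were all detected. Their sum ran from 122549 to 156638, 119118 to 147908 and 101144 to 128251 CPM in the 3 Cre- groups. In the Cre+ groups it ran from 125483 to 175667, 82059 to 134647 and 66912 to 73473 CPM. By experiment 1, 1 and 3 of 7 were lower and none higher, with median log2 fold changes of 0.08, -0.35 and -0.03. *Alb* alone held most of the sum in HFCFD2W, at means of 84748 CPM in Cre- and 101316 CPM in Cre+ livers. The sum of 5 cholangiocyte markers ran from 33.8 to 76.4 CPM over all Cre- livers and from 147 to 1030 CPM over all Cre+ livers, and 1 of 2 tested, 3 of 5 and 5 of 5 were higher. Nearly all of this sum was *Spp1*, at means of 531, 246 and 801 CPM in the Cre+ groups. The paper places the rise of *Spp1* after 2 weeks of HFCFD mostly in hepatocytes, so the sum is not a measure of cholangiocytes alone. In HFCFD2W *Spp1* was the 1 tested marker of the 5 that was higher. In the Cre+ groups *Krt19*, *Krt7*, *Epcam* and *Sox9* had means of 0.558 to 1.59, 1.07 to 3.81 and 5.90 to 17.6 CPM. *Krt19* and *Krt7* were too low to be tested in HFCFD2W and were higher in HFCFD12W+T10W alone. In HFCFD8W+T10D they had log2 fold changes of -0.51 and -0.19, neither of which passed. The 3 of 5 that were higher there were *Spp1*, *Epcam* and *Sox9*. The sum of 5 macrophage markers ran from 118 to 152, 405 to 655 and 195 to 516 CPM in Cre- and from 143 to 237, 612 to 1145 and 629 to 741 CPM in Cre+ livers, with 3, 4 and 4 higher. That of 6 stellate cell and fibroblast markers ran from 113 to 219, 272 to 496 and 244 to 306 CPM and from 118 to 232, 454 to 890 and 951 to 1171 CPM, with 0, 2 and 6 higher. The 5 endothelial markers summed to 124 to 220 CPM in any liver, the 5 lymphocyte markers to at most 8.78 CPM, and the 3 kidney tubule markers to at most 0.274 CPM. The part of these other cells in the results was not tested.

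Among the 9 members, 1 was higher and 5 were lower in *Cebpa* ΔHep livers of HFCFD2W, where 8.6% of all genes tested were higher and 8.09% lower. In HFCFD8W+T10D 4 members were lower and none higher, against 6.85% and 10.3% of all genes, and in HFCFD12W+T10W 8 were lower and none higher, against 23.8% and 27.4%. With a fold change over 2 as well, 1 member was higher and 1 lower in HFCFD2W (1.69% and 1.38% of all genes), 0 and 1 in HFCFD8W+T10D (4.09% and 2.01%), and 0 and 4 in HFCFD12W+T10W (14.3% and 3.47%). The median log2 fold change of the members was -0.31, -0.50 and -0.93, and that of all genes tested was 0.01 in each experiment. The genotypes did not overlap in any member that passed and overlapped in every member that did not, so the counts without overlap are the counts that passed. Among all genes tested, passed or not, the Cre+ group lay wholly below the Cre- group in 6.13%, 5.5% and 19.5%. It lay wholly above in 6.33%, 6.01% and 19.6%. *Tdo2*, *Hpd*, *Hal* and *Cth* were lower in all 3 experiments (*Hal* in HFCFD8W+T10D not under every scaling), *Hgd* was lower in HFCFD2W and HFCFD12W+T10W, *Sds* and *Gls2* were lower in HFCFD12W+T10W, and *Agxt* passed in none.

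The genotype effect was compared between experiments, with its sign, by an interaction term, and where a gene fell a lower effect is a larger fall. Against HFCFD2W it was lower in HFCFD8W+T10D for 2 members (*Tat* and *Tdo2*), where 6.79% of all genes were lower and 4.45% higher, and lower in HFCFD12W+T10W for 7, all but *Agxt* and *Hgd*, where 17.3% were lower and 13.4% higher. Against HFCFD8W+T10D it was lower in HFCFD12W+T10W for 4 (*Hpd*, *Hal*, *Sds* and *Gls2*), where 5.49% were lower and 4.97% higher. No member passed upward in these 3 tests. With a difference over 2-fold as well, 1, 1 and 2 members were lower in that order, against 2.28%, 3.87% and 0.602% of all genes lower and 1.82%, 8.4% and 3.86% higher. The comparisons share livers and are not independent of each other.

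**Figure D1:**
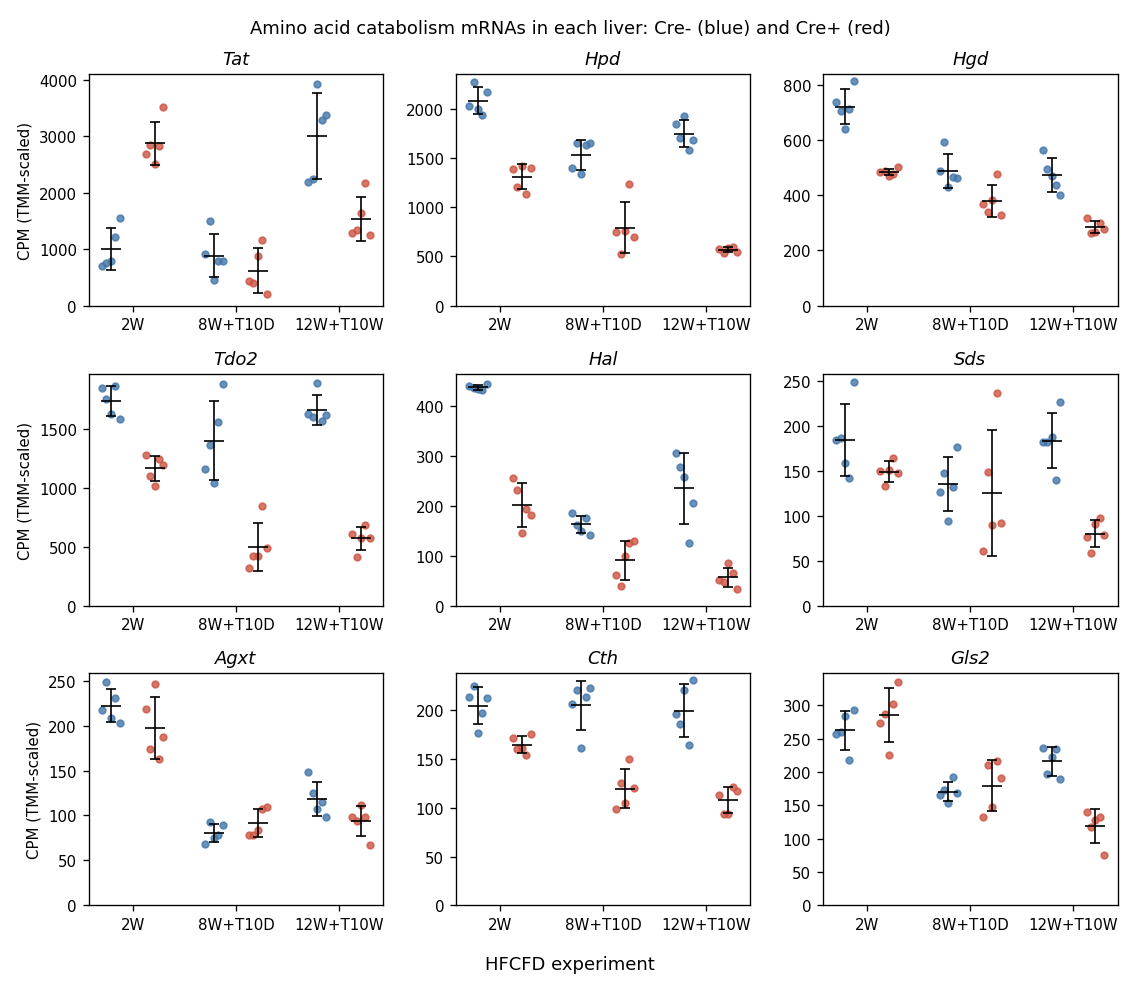
TMM-scaled CPM (vertical axes, each from 0) of the 9 mRNAs in each of 30 livers by HFCFD experiment (horizontal axes), with Cre- livers in blue, Cre+ livers in red, and black bars for the mean and SD of 5 livers. *Tat* is high in the Cre+ livers of HFCFD2W and in the Cre- livers of HFCFD12W+T10W, while *Tdo2* and *Hpd* are lower in the Cre+ livers of every experiment.

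*Tat* (chr8:109990437-109999803, + strand), the first and rate-limiting enzyme of tyrosine breakdown and a classical glucocorticoid target, went in opposite directions. In HFCFD2W the 5 *Cebpa* fl/fl livers held 696, 762, 791, 1208 and 1557 CPM and the 5 *Cebpa* ΔHep livers 2682, 2837, 2504, 2821 and 3510 CPM. Every Cre+ liver lay above every Cre- liver, at a mean of 2871 ± 382 against 1003 ± 370 CPM (SD, n = 5), a log2 fold change of 1.52 (SE 0.20, adjusted p = 0.00032). In HFCFD8W+T10D the Cre- livers held 916, 1492, 452, 782 and 795 CPM and the Cre+ livers 438, 407, 884, 1165 and 211 CPM. These overlapped, and the log2 fold change of -0.50 (SE 0.41) had an adjusted p of 0.447. In HFCFD12W+T10W the Cre- livers held 2186, 2246, 3916, 3286 and 3372 CPM and the Cre+ livers 1289, 1332, 1649, 2162 and 1244 CPM. The highest Cre+ liver was just under the lowest Cre- liver there, and the log2 fold change was -0.93 (SE 0.20, adjusted p = 0.00164). The Cre- livers of HFCFD12W+T10W were themselves at 338% of those of HFCFD8W+T10D, so that *Tat* in their Cre+ counterparts, at 1535 ± 385 CPM, still stood above the Cre- means of both other experiments.

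The genotype effect on *Tat* differed from that in HFCFD2W by -2.03 log2 units in HFCFD8W+T10D (SE 0.46, adjusted p = 0.00411) and by -2.48 in HFCFD12W+T10W (SE 0.46, adjusted p = 0.000208). Between the tamoxifen experiments the difference was -0.45 (SE 0.46, adjusted p = 0.587). Among the 10950 genes tested in all 3 experiments, the gene whose 6 group means were most like those of *Tat* was *Slc38a2*, a sodium-coupled transporter of neutral amino acids, at a root mean square difference of 0.23 log2 units after centring. *Cep85l* was next, at 0.34. *Slc38a2* had a mean of 404 ± 69.7 CPM in *Cebpa* ΔHep and 152 ± 60.9 CPM in *Cebpa* fl/fl livers of HFCFD2W, a log2 fold change of 1.41 (SE 0.24), then -0.43 and -0.45 in the tamoxifen experiments, the last of which passed (adjusted p = 0.0227) with overlapping genotypes. The nearest member to *Tat* was *Agxt*, at 0.87 log2 units, which ranked 2736 among the 10950 genes.

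Other genes of the fasting and hormone response were compared with *Tat*. *Pck1*, the gluconeogenic carboxykinase, was at 3569 ± 433 CPM in *Cebpa* ΔHep livers and 1404 ± 462 CPM in *Cebpa* fl/fl livers of HFCFD2W (log2 fold change 1.35, SE 0.19), and *Cebpb*, the relative of CEBPA that binds the same letters, was at 47.7 ± 6.19 and 22.1 ± 5.63 CPM (1.11, SE 0.15). Both were lower in HFCFD12W+T10W, at -0.55 (SE 0.13) and -0.44 (SE 0.12), and did not pass in HFCFD8W+T10D, at 0.20 (SE 0.33) and 0.07 (SE 0.14). *G6pc*, another gluconeogenic gene, did not pass in HFCFD2W (0.45, SE 0.33, adjusted p = 0.3845), with overlapping genotypes. Of 4 glucocorticoid-responsive genes, chosen after the values were seen, *Tsc22d3* and *Fkbp5* rose by log2 fold changes of 1.27 (SE 0.22) and 1.42 (SE 0.14) in HFCFD2W, while *Sgk1* (0.78, adjusted p = 0.0557) and *Per1*, also a clock gene (0.38, adjusted p = 0.148), did not pass. *Tsc22d3* held rank 4 among the genes nearest to *Tat* over the 6 group means, so its rise with *Tat* is not a separate result. In HFCFD12W+T10W *Fkbp5* was lower, at -0.68 (SE 0.25, adjusted p = 0.0407), *Per1* was lower too (-0.33, SE 0.11, adjusted p = 0.0214), *Sgk1* was higher (1.18, SE 0.21, adjusted p = 0.000528), and *Tsc22d3* stood at -0.29 (SE 0.13, adjusted p = 0.082). None of the 4 passed in HFCFD8W+T10D. *Nr3c1*, the glucocorticoid receptor, did not pass in HFCFD2W (-0.24, SE 0.09, adjusted p = 0.092) and was lower in both tamoxifen experiments, at -0.39 in each. Of the clock genes, chosen in the same way, *Dbp* and *Nr1d1* were lower in *Cebpa* ΔHep livers of HFCFD2W, at -0.96 (SE 0.23) and -1.35 (SE 0.21), and neither passed in the other experiments. *Per2* stood at 0.11 (adjusted p = 0.646) in HFCFD2W and was lower in HFCFD12W+T10W (-0.40, SE 0.13, adjusted p = 0.0214). The hour and feeding state at which livers were taken are not given in the sources used here, and the part of these genes in the level of *Tat* was not tested.

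*Hpd* (chr5:123171807-123182727, - strand), the second enzyme of the tyrosine path, had the highest mean TPM of the 9 in all 3 Cre- groups. In HFCFD2W the Cre- livers held 2032, 2267, 1999.9, 1938 and 2171 CPM and the Cre+ livers 1392, 1205, 1415, 1138 and 1397 CPM, a log2 fold change of -0.67 (SE 0.09, adjusted p = 0.000226). In HFCFD8W+T10D the Cre- livers held 1402, 1656, 1336, 1628 and 1648 CPM and the Cre+ livers 752, 524, 763, 1231 and 698 CPM, a log2 fold change of -0.94 (SE 0.20, adjusted p = 0.00712). One Cre+ liver, replicate 4, lay close under the Cre- range there, while the other 4 were at or below 763 CPM. In HFCFD12W+T10W the Cre- livers held 1839.7, 1704, 1922, 1581 and 1680 CPM and the Cre+ livers 575, 533, 587, 600.5 and 547 CPM. This was the tightest of the Cre+ groups of *Hpd*, with an SD of 27.9 CPM around 569 CPM, and a log2 fold change of -1.57 (SE 0.08, adjusted p = 4.31e-08). The effect in HFCFD12W+T10W exceeded that in HFCFD2W by -0.95 log2 units (SE 0.19, adjusted p = 0.000486) and that in HFCFD8W+T10D by -0.67 (SE 0.19, adjusted p = 0.0245). The latter had an adjusted p of 0.0642 without Cre- replicate 3 of HFCFD8W+T10D and 0.0588 without Cre- replicate 3 of HFCFD12W+T10W. *Mfsd4b1* and *Sdr42e1* were nearest to *Hpd* over the 6 group means, at 0.10 and 0.11 log2 units.

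*Hgd* (chr16:37580153-37632020, + strand), which opens the ring of homogentisate and is the gene of alkaptonuria, changed less. It fell from 720.0 ± 62.6 to 484 ± 11.4 CPM in HFCFD2W (log2 fold change -0.57, SE 0.07, adjusted p = 0.000262) and from 473 ± 61.8 to 285 ± 22.8 CPM in HFCFD12W+T10W (-0.69, SE 0.10, adjusted p = 7.58e-05). In HFCFD8W+T10D the Cre- livers lay between 429.9 and 592 CPM and the Cre+ livers between 329.96 and 476 CPM, with 1 Cre+ liver inside the Cre- range. The log2 fold change of -0.35 (SE 0.13) had an adjusted p of 0.0885, and without that liver, replicate 4, it was -0.45 with an adjusted p of 0.0207. No difference of effects between experiments passed for *Hgd*, with adjusted p from 0.0993 to 0.432. *Naprt* and *Miga2* were its nearest genes, at 0.07 and 0.08 log2 units.

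*Tdo2* (chr3:81957090-81976202, - strand), the first step of tryptophan breakdown in liver, fell most in the tamoxifen experiments. In HFCFD2W the Cre- livers held 1845, 1754, 1627, 1858 and 1580 CPM and the Cre+ livers 1274, 1096, 1017, 1240 and 1189 CPM, a log2 fold change of -0.57 (SE 0.09, adjusted p = 0.000775). In HFCFD8W+T10D the Cre- livers held 1156, 1364, 1035, 1557 and 1881 CPM and the Cre+ livers 319, 417, 422, 848 and 490 CPM, a log2 fold change of -1.47 (SE 0.25, adjusted p = 0.00204). In HFCFD12W+T10W the Cre- livers held 1626, 1601, 1887, 1563 and 1613 CPM and the Cre+ livers 604, 415, 574, 685 and 573 CPM, a log2 fold change of -1.497 (SE 0.12, adjusted p = 1.24e-06). The Cre+ mean was thus 67.1% of the Cre- mean after the constitutive deletion and 35.7% and 34.4% after the induced ones. Both tamoxifen experiments differed from HFCFD2W, by -0.91 (SE 0.25, adjusted p = 0.0181) and -0.96 (SE 0.25, adjusted p = 0.00465), and they differed from each other by -0.05 (SE 0.25, adjusted p = 0.925). The nearest genes to *Tdo2* were *Cyp4a32* (0.11 log2 units) and *Slco1b2* (0.15), and its nearest member was *Hpd* (0.22).

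*Hal* (chr10:93488768-93519304, + strand), the histidine ammonia lyase, had the largest fall of the 9 in HFCFD12W+T10W. In HFCFD2W the Cre- livers held 439, 435, 435, 432 and 444 CPM and the Cre+ livers 256, 231, 145, 194 and 180.5 CPM. The Cre- livers were almost level, with an SD of 4.85 CPM, and the log2 fold change was -1.12 (SE 0.13, adjusted p = 0.000103). In HFCFD8W+T10D the Cre- livers held 185, 161, 149.7, 175 and 141 CPM and the Cre+ livers 61.5, 38.7, 98.9, 125 and 129 CPM, a log2 fold change of -0.83 (SE 0.26, adjusted p = 0.0451). That call lay near the threshold: the adjusted p ran from 0.0592 to 0.106 without any 1 of the 5 Cre- livers or Cre+ replicate 1 or 3, and stayed below 0.05 without any of the other 3. It was 0.0559 with upper quartile scaling and 0.0627 with library totals alone. In HFCFD12W+T10W the Cre- livers held 306, 278, 258, 125 and 205 CPM and the Cre+ livers 50.9, 47.3, 84.5, 65.9 and 33.1 CPM, a mean of 24.03% of the Cre- level and a log2 fold change of -2.01 (SE 0.27, adjusted p = 4.65e-05). This effect differed from that in HFCFD8W+T10D by -1.21 (SE 0.36, adjusted p = 0.0272) and from that in HFCFD2W by -0.94 (SE 0.35, adjusted p = 0.0439). Leaving out 1 mouse raised the first above 0.05 in 10 of 20 fits, to at most 0.0646, and the second in 14 of 20 fits, to at most 0.0992. The nearest genes to *Hal* were *Fn3k* (0.17 log2 units) and the asparaginase *Aspg* (0.22).

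**Figure D2:**
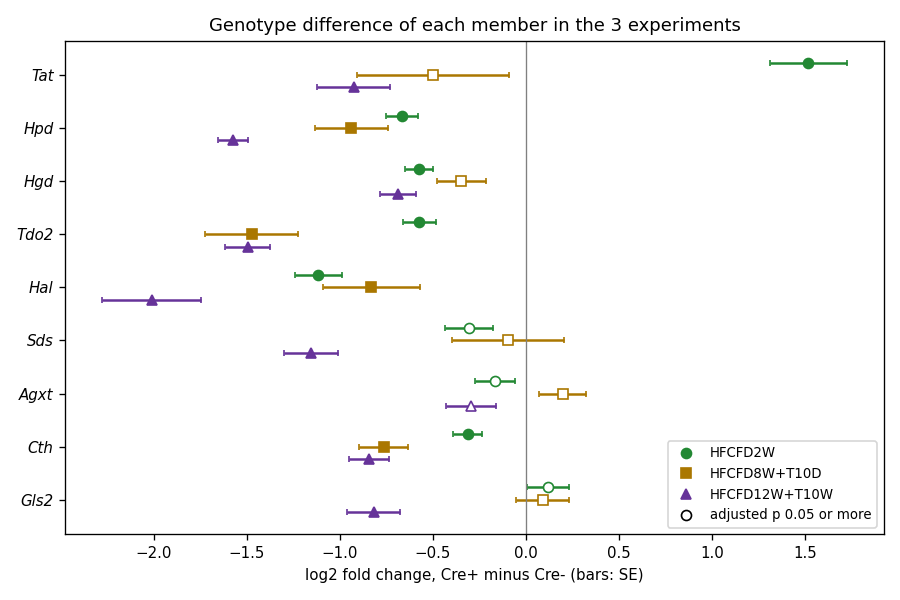
Log2 fold change of Cre+ against Cre- livers (horizontal axis, bars for the SE) of the 9 mRNAs (vertical axis) in HFCFD2W (circles), HFCFD8W+T10D (squares) and HFCFD12W+T10W (triangles), filled where the adjusted p was under 0.05. *Tat* is the only filled point above 0, at 1.52, and 8 of the 9 triangles are filled and below 0.

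*Sds* (chr5:120476526-120483932, + strand), a gluconeogenic enzyme that deaminates serine, and *Gls2* (chr10:128194457-128210004, + strand), which releases ammonia from glutamine for the urea cycle, passed in HFCFD12W+T10W alone among the genotype differences. *Sds* there fell from 182, 182, 188, 139.9 and 227 CPM in Cre- livers to 75.9, 58.3, 90.7, 98.0 and 78.3 CPM in Cre+ livers, a log2 fold change of -1.15 (SE 0.15, adjusted p = 3.29e-05). *Gls2* fell from 236, 197, 223, 234 and 189 CPM to 139.7, 118, 128, 132 and 75.8 CPM, a log2 fold change of -0.82 (SE 0.14, adjusted p = 0.00042). No Cre+ liver reached the lowest Cre- liver in either gene. In HFCFD2W *Sds* stood at -0.30 (SE 0.13, adjusted p = 0.127) and *Gls2* at 0.12 (SE 0.11, adjusted p = 0.51), and in HFCFD8W+T10D they stood at -0.10 (SE 0.30, adjusted p = 0.864) and 0.09 (SE 0.14, adjusted p = 0.719). Without Cre- replicate 4 *Sds* passed in HFCFD2W (adjusted p = 0.048). The Cre+ livers of HFCFD8W+T10D spread widely in *Sds*, from 60.3 to 237 CPM. For *Gls2* the effect in HFCFD12W+T10W differed from both others, by -0.94 (SE 0.20, adjusted p = 0.00353) from HFCFD8W+T10D and by -0.98 (SE 0.20, adjusted p = 0.000499) from HFCFD2W. For *Sds* these differences were -1.09 (SE 0.33, adjusted p = 0.0322) and -0.89 (SE 0.33, adjusted p = 0.0397), and without 1 mouse the adjusted p rose above 0.05 in 10 and 14 of 20 fits, to at most 0.0971 and 0.0897. *Acy1* and *Hrg* were nearest to *Sds* (0.06 and 0.09 log2 units), and *Abat* and *Gm42418* nearest to *Gls2* (0.08 each).

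*Cth* (chr3:157894248-157925077, - strand), the last step of transsulfuration, held a like Cre- level in the 3 experiments, at 205 ± 18.8, 205 ± 25.1 and 199.5 ± 26.7 CPM. Its Cre+ level was 164 ± 8.71, 119 ± 20.03 and 108 ± 13.2 CPM, which gave log2 fold changes of -0.31 (SE 0.08, adjusted p = 0.0144), -0.77 (SE 0.13, adjusted p = 0.00205) and -0.84 (SE 0.11, adjusted p = 3.87e-05). In HFCFD2W the highest Cre+ liver, at 175.5 CPM, was just under the lowest Cre- liver, at 176.2 CPM. The effect in HFCFD12W+T10W differed from that in HFCFD2W by -0.57 (SE 0.16, adjusted p = 0.00637), and that in HFCFD8W+T10D by -0.46 (SE 0.16), with an adjusted p of 0.0512. The latter passed without Cre- replicate 3 (adjusted p = 0.0198) or Cre+ replicate 4 (0.0127) of HFCFD8W+T10D. The call in HFCFD2W was lost in a joint fit of all 30 livers (adjusted p = 0.0568). The nearest genes were *Adk* and *Chkb*, at 0.07 log2 units each.

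*Agxt* (chr1:93135240-93145421, + strand), the peroxisomal enzyme whose loss causes primary hyperoxaluria, did not pass by genotype. Its log2 fold changes were -0.17 (SE 0.11, adjusted p = 0.309), 0.20 (SE 0.13, adjusted p = 0.315) and -0.29 (SE 0.14, adjusted p = 0.0862). In HFCFD12W+T10W the direction turned with the scaling: the log2 fold change was 0.07 when libraries were scaled to their totals alone, and the mean TPM was 107 in Cre- and 112 in Cre+ livers. The TMM-scaled value in that experiment passed without Cre- replicate 5 (adjusted p = 0.0397) or Cre+ replicate 3 (0.0433). Its Cre- level differed between experiments more than by genotype, at 222 ± 18.4, 80.5 ± 10.2 and 119 ± 18.9 CPM. *Fbxo21* and *Cox10* were nearest to it, at 0.10 and 0.12 log2 units.

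Per transcript length, *Hpd* led the Cre- livers with 1634 ± 131, 1422 ± 185 and 1787 ± 132 TPM, and in HFCFD12W+T10W its range overlapped that of *Tat*, the next member, at 1669 ± 402 TPM. *Tdo2* held 724, 798 and 989 TPM. In HFCFD2W and HFCFD8W+T10D *Hgd* and *Tat* followed with overlapping ranges, at 454 and 424 TPM and at 360 and 434 TPM, and in HFCFD8W+T10D *Tat* also overlapped *Tdo2*. *Sds*, *Agxt*, *Hal*, *Gls2* and *Cth* lay between 65.3 and 226 TPM in the Cre- livers, and most neighbours in that order overlapped. In Cre+ livers the order began with *Tat* in HFCFD2W (1327 ± 164 TPM, overlapping *Hpd* at 1111 ± 96.2 TPM), with *Hpd* in HFCFD8W+T10D (830 ± 108 TPM) and with *Tat* again in HFCFD12W+T10W (1132 ± 267 TPM, without overlap with *Hpd* at 774 ± 25.9 TPM). *Hal* was last of the 9 in HFCFD2W and HFCFD8W+T10D Cre+ livers and in HFCFD12W+T10W. The summed TPM of the 9 was 3953 ± 215 in Cre- and 3954 ± 270 in Cre+ livers of HFCFD2W. In HFCFD8W+T10D it was 3540 ± 513 against 2326 ± 306, and in HFCFD12W+T10W it was 5554 ± 461 against 3160 ± 394. With the composition factor, in CPM, the sums were 6847 in Cre- and 6824 in Cre+ livers of HFCFD2W. They were 5061 and 2900 CPM in HFCFD8W+T10D and 7830 and 3416 CPM in HFCFD12W+T10W. In HFCFD2W the equal sums were made of more *Tat* and less *Hpd*, *Tdo2* and *Hgd*.

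**Figure D3:**
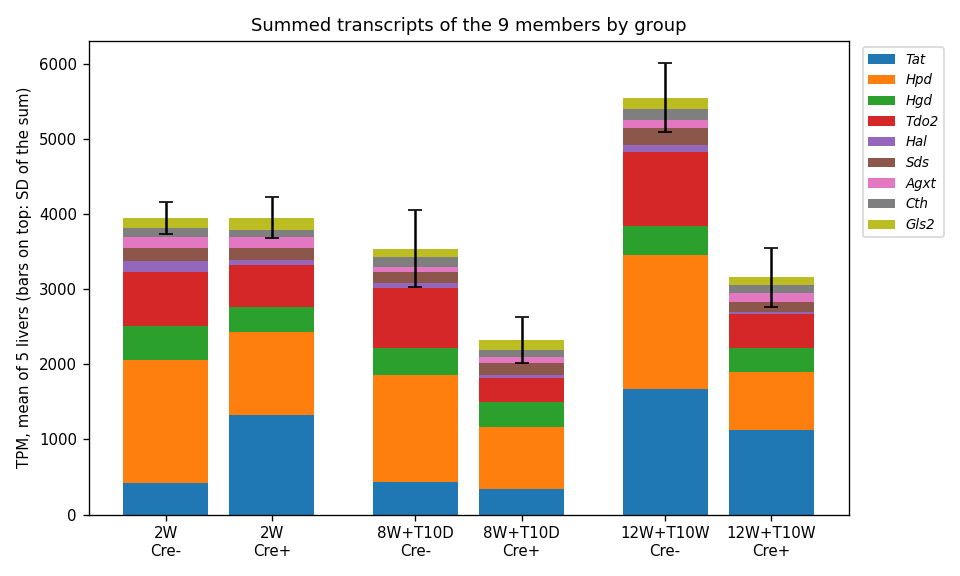
Stacked mean TPM of the 9 mRNAs (vertical axis, from 0) in the 6 groups of 5 livers (horizontal axis), with the SD of the summed TPM as bars. The sums are 3953 and 3954 TPM in HFCFD2W, where the *Tat* segment grows from 424 to 1327 TPM, and fall to 2326 and 3160 TPM in the Cre+ livers of the tamoxifen experiments.

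Cre- livers were compared between experiments to show the ground on which each genotype difference stands. Against HFCFD2W, those of HFCFD8W+T10D had less *Agxt* (log2 fold change -1.46, SE 0.14), *Hal* (-1.43, SE 0.25), *Gls2* (-0.62, SE 0.14), *Hgd* (-0.56, SE 0.10) and *Hpd* (-0.44, SE 0.14), 5 of the 9, without overlap of the livers in any of the 5. No member was higher. Of all genes 21.5% were lower and 22.2% higher, and 15.2% lay wholly below and 13.5% wholly above. Over 2-fold, 2 members were lower, against 2.59% of all genes lower and 11.1% higher. From HFCFD8W+T10D to HFCFD12W+T10W, *Tat* was higher by 1.76 (SE 0.33, adjusted p = 0.000742) and *Agxt* by 0.56 (SE 0.13, adjusted p = 0.00599), both without overlap, and no member was lower. Of all genes 6.31% were higher and 5.12% lower, and 4.53% lay wholly above and 3.43% wholly below. Over 2-fold, *Tat* was the 1 member that was higher, against 1.19% of all genes higher and 1.87% lower. *Slc38a2* (1.36, SE 0.26), *Pck1* (1.08, SE 0.26), *Cebpb* (0.89, SE 0.15) and *Tsc22d3* (1.27, SE 0.23) were also higher in that comparison, while *Fkbp5* was not (0.06, SE 0.27, adjusted p = 0.919). *Slc38a2* and *Tsc22d3* ranked 1 and 4 among the genes nearest to *Tat* over the 6 group means. Those means include these Cre- livers, so a rise of these genes with *Tat* is not a separate result. From HFCFD2W to HFCFD8W+T10D *Fkbp5* was higher by 2.56 (SE 0.29, adjusted p = 1.003e-07), where *Tat* stood at -0.18 (adjusted p = 0.685). The clock genes *Arntl* and *Dbp* differed far more than any member: the Cre- mean of *Arntl* was 0.502, 15.6 and 1.70 CPM and that of *Dbp* 98.8, 4.04 and 42.2 CPM in HFCFD2W, HFCFD8W+T10D and HFCFD12W+T10W. They move with the experiment, and their part in the members' levels was not tested. These comparisons use the same Cre- livers as the genotype differences.

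The other genes of amino acid breakdown were read from 8 lists of 80 genes, of which 75 were tested in each experiment. In HFCFD2W 6 were higher and 17 lower. In HFCFD8W+T10D these counts were 2 and 15, and HFCFD12W+T10W had 2 higher and 62 lower, with median log2 fold changes of -0.07, -0.22 and -0.66. The percentages of all genes are those given for the members. The genotype effect in HFCFD12W+T10W was below that in HFCFD2W for 50 of the 75 genes and below that in HFCFD8W+T10D for 32, against 17.3% and 5.49% of all genes, and for 7 and 4 of the 9 members.

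In the tyrosine and phenylalanine list, *Pcbd1* (-0.49), *Qdpr* (-0.71), *Gstz1* (-0.77) and *Fah* (-0.92) were lower in HFCFD12W+T10W, the last of them the enzyme at the end of the path. In HFCFD2W *Qdpr* (-0.55) and *Gstz1* (-0.23) were lower, and in HFCFD8W+T10D *Gstz1* (-0.51). Of the 10 genes around *Tdo2*, 8 were lower in HFCFD12W+T10W, led by the kynurenine formamidase *Afmid* (-1.49, SE 0.14), *Ido2* (-1.40, SE 0.16), *Kyat1* (-1.30, SE 0.21), *Kyat3* (-1.09, SE 0.20) and *Haao* (-1.06, SE 0.10). *Afmid*, the step after *Tdo2*, was higher in HFCFD2W (0.48, SE 0.13) and lower in HFCFD8W+T10D (-0.68, SE 0.17). The steps after *Hal* were all lower in HFCFD12W+T10W, *Amdhd1* at -1.28 (SE 0.20), *Uroc1* at -1.12 (SE 0.15) and *Ftcd* at -0.44 (SE 0.10), while *Ftcd* was higher in the other experiments, at 0.24 (SE 0.08) and 0.49 (SE 0.14).

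Among genes of serine and glycine, *Gldc*, the decarboxylase of the glycine cleavage system, was lower in HFCFD2W (-1.15, SE 0.21) and HFCFD12W+T10W (-1.18, SE 0.29), and *Hao1*, which makes the glyoxylate that AGXT removes, was lower in HFCFD8W+T10D (-1.01, SE 0.12) and HFCFD12W+T10W (-1.09, SE 0.16). Of the 13 tested genes around *Gls2*, 1 was higher and 4 lower in HFCFD2W, 3 were lower in HFCFD8W+T10D, and 1 was higher, by over 2-fold, and 10 lower in HFCFD12W+T10W. The ornithine aminotransferase *Oat* fell in every experiment, by log2 fold changes of -1.73 (SE 0.16), -1.26 (SE 0.25) and -1.27 (SE 0.20), and so did the aspartate aminotransferase *Got1*, by -1.31 (SE 0.19), -1.33 (SE 0.31) and -1.04 (SE 0.15). *Aspg* was lower in HFCFD2W (-0.90, SE 0.11) and HFCFD12W+T10W (-2.04, SE 0.18). Beside *Cth*, *Cbs*, the step before it, was lower in all 3 experiments (-0.96, -0.62 and -1.03), as was *Cdo1*, which oxidizes cysteine (-0.72, -0.71 and -0.97).

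Of the 19 tested genes of branched-chain amino acids, 2 were higher and 1 lower in HFCFD2W, 4 were lower in HFCFD8W+T10D, and 17 were lower in HFCFD12W+T10W. *Ppm1k*, the phosphatase that activates the branched-chain dehydrogenase, was lower in all 3 (-0.67, -1.33 and -1.11), and *Bckdk*, the kinase that opposes it, was higher in HFCFD12W+T10W (0.57, SE 0.16). All 5 tested lysine genes were lower there, with *Pipox* at -1.003 (SE 0.08). Of 8 transporters, 1 was higher and 2 lower in HFCFD2W, 6 were lower in HFCFD8W+T10D and 7 in HFCFD12W+T10W. *Slc43a1*, which carries large neutral amino acids, fell most, by log2 fold changes of -1.86 (SE 0.22), -2.08 (SE 0.27) and -1.13 (SE 0.30). Its level was low, at means of 6.06 CPM in Cre- and 1.64 CPM in Cre+ livers of HFCFD2W. *Slc1a2* was lower by -1.05 (SE 0.14) in HFCFD12W+T10W.

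**Figure D4:**
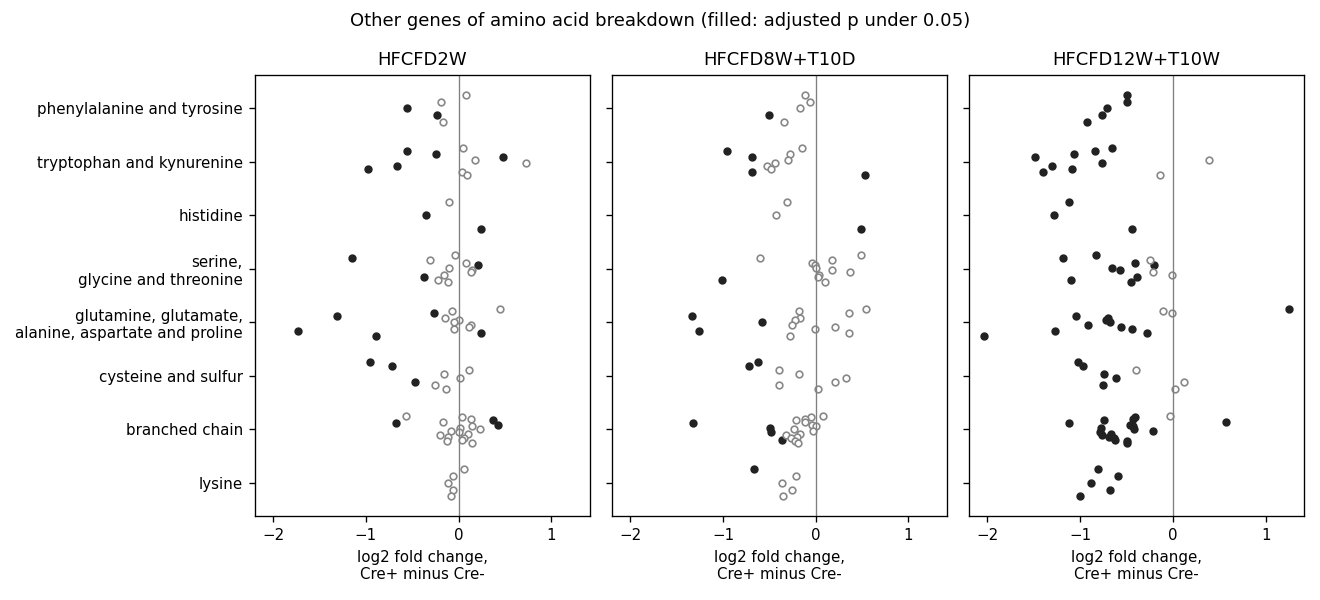
Log2 fold change of Cre+ against Cre- livers (horizontal axes) of the tested genes of 8 amino acid breakdown lists (vertical axis), 1 panel per experiment, with filled points for an adjusted p under 0.05. Most points lie near 0 in HFCFD2W, where 6 genes are higher and 17 lower, and 62 of 75 are lower in HFCFD12W+T10W.

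Of 11 factors known to act on these genes, *Cebpb*, *Ppargc1a* (0.57, SE 0.16) and *Klf15* (0.52, SE 0.08) were higher and none lower in HFCFD2W. In HFCFD8W+T10D *Hnf4a* (-0.56, SE 0.13) and *Nr3c1* were among those that were lower. In HFCFD12W+T10W 10 were lower, led by *Hnf4a* (-0.96, SE 0.08), and *Cebpd* was higher (0.59, SE 0.20). Of 8 periportal genes, the zone in which *Hal*, *Sds* and *Gls2* are usually found, 3 were higher and none lower in HFCFD2W, 1 was higher and 4 lower in HFCFD8W+T10D, and 6 were lower in HFCFD12W+T10W. In HFCFD8W+T10D *Cyp2f2* was higher (1.53, SE 0.48, adjusted p = 0.0451) with overlapping genotypes, and *Cps1* (-1.37, SE 0.16) and *G6pc* (-1.11, SE 0.21) were lower. Those over 2-fold lower in HFCFD12W+T10W were *Cps1* (-1.39, SE 0.14), *Asl* (-1.28, SE 0.12), *Pigr* (-1.28, SE 0.15), *G6pc* (-1.24, SE 0.17) and *Arg1* (-1.03, SE 0.10). Of 8 pericentral genes, 1 was higher in each experiment, the ammonium transporter *Rhbg* (0.67, 1.45 and 1.89), and 3, 3 and 4 were lower, among them *Cyp2e1* in HFCFD8W+T10D (-1.28, SE 0.32) and HFCFD12W+T10W (-1.37, SE 0.14).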

How the data were processed

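Livers of 30 mice in 6 groups of 5 were measured, 1 library per mouse, with RNA from RNeasy Plus and TruSeq Stranded mRNA libraries. Per the labels, reads were processed with Trimmomatic 0.36, STAR 2.5.1, Picard 1.84 and RSEM 1.2.22 on mm10, and DESeq2 is named without a version. The authors deposited RSEM expected counts per gene, not normalized, and TPM per library. RSEM shares a read among the genes it fits, so that 3.25% of the expected counts were not whole. The FPKM, RPKM and normalized CPM values the authors deposited were not used here.

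Expected counts were rounded. With R 4.3.3 and edgeR 4.0.16, genes were filtered by filterByExpr, scaled by TMM, and compared between genotypes within each experiment by the quasi-likelihood test. Adjusted p-values are Benjamini-Hochberg values over every gene in that test. Differences of genotype effects and Cre- comparisons came from 1 fit of all 30 libraries. In total 11068, 11990 and 12463 genes were tested within experiments and 12964 jointly. The steps were tested on simulated data. Replicate numbers come from the titles, in which HFCFD2W Cre+ mice are 2 to 6. Log2 CPM for patterns and for the permutation test of *Cebpa* used a prior count of 2.

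The members and all lists were chosen with earlier results of these data known, which is why no p-value over a list is given. All members and *Cebpa* are named, of each list the genes over 2-fold changed or else the largest change each way, at most 8 largest, and for each member the 2 genes with the nearest 6 group means. *Tsc22d3*, *Fkbp5*, *Sgk1*, *Per1*, *Per2*, *Dbp*, *Nr1d1* and *Arntl*, with further list members, were chosen after their values were seen. The alternatives were no low-count filter, upper quartile scaling, DESeq2 1.42.0, a joint fit, a replicate block, each mouse left out, and a fold over 2. Scaling to library totals alone was added after seeing the data. Gene positions are from GENCODE M21 on GRCm38. Results for some list genes are not reported here, although the rule covers them.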

Additional observations from a re-analysis of the deposited data

Results flagged for a closer look

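Of 54 sets of 5 livers (9 mRNAs in 6 groups), 2 held a liver far from the other 4 by Dixon's test at its 95% level, which chance alone does in about 1 set in 20. *Tdo2* was at 1887 CPM in Cre- replicate 3 of HFCFD12W+T10W, where the other 4 lay between 1563 and 1626 CPM. *Cth* was at 162 CPM in Cre- replicate 3 of HFCFD8W+T10D, where the other 4 lay between 207 and 223 CPM. Neither liver decides the genotype call of its gene, since both were kept without any 1 mouse.

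The genotype effect differed between experiments in 13 of 27 tests by an interaction term in edgeR. From HFCFD2W to HFCFD8W+T10D the effect moved by -2.03 log2 units for *Tat* and -0.91 for *Tdo2*. From HFCFD8W+T10D to HFCFD12W+T10W it moved by -0.67 for *Hpd*, -1.21 for *Hal*, -1.09 for *Sds* and -0.94 for *Gls2*. From HFCFD2W to HFCFD12W+T10W it moved by -2.48 for *Tat*, -0.96 for *Tdo2*, -0.95 for *Hpd*, -0.94 for *Hal*, -0.89 for *Sds*, -0.98 for *Gls2* and -0.57 for *Cth*. Each of the 13 was downward. Of all genes, 6.79%, 5.49% and 17.3% were lower and 4.45%, 4.97% and 13.4% higher, in the same order of comparisons. The comparisons share livers. Without 1 mouse, *Hal* and *Sds* each lost the call in 10 of 20 fits against HFCFD8W+T10D and in 14 of 20 against HFCFD2W. *Hpd* against HFCFD8W+T10D lost it in 2 of 20.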

How the results depend on the processing

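The alternatives other than the fold condition gave 288 values of called genotype differences of single members. Of these, 277 kept their direction and their call and 11 lost the call. Of 403 such values for the differences of effects and the Cre- comparisons, 345 kept both, and the others lost the call. None of the called values, those of the differences between experiments included, reversed. Scaling to library totals alone was run for the genotype differences only, so its effect on the differences between experiments was not tested. With a fold over 2 as a second condition, the members that were lower counted 1, 1 and 4 in HFCFD2W, HFCFD8W+T10D and HFCFD12W+T10W. For the differences of effects they then counted 1 (HFCFD8W+T10D against HFCFD2W), 2 (HFCFD12W+T10W against HFCFD8W+T10D) and 1 (HFCFD12W+T10W against HFCFD2W), and for Cre- livers 2 lower and 1 higher.

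The count of 4 members whose effect was lower in HFCFD12W+T10W than in HFCFD8W+T10D became 2 with upper quartile scaling and 2 with a replicate block. With the block *Hpd* (adjusted p = 0.0731), *Hal* (0.0875) and *Sds* (0.07) lost the call and *Agxt* (0.0481) gained it. The count ran from 1 to 5 when 1 mouse was left out. It was 1 without Cre- replicate 3 of either experiment. It was 2 without Cre+ replicate 4 of HFCFD8W+T10D, or without Cre- replicate 2, Cre+ replicate 2 or Cre+ replicate 5 of HFCFD12W+T10W. The 2 members lower in HFCFD8W+T10D than in HFCFD2W became 2 to 4, with 4 without Cre+ replicate 4 of HFCFD8W+T10D. The cause was not tested.

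These values, none of them called, changed sign. With upper quartile scaling the difference of effects was 0.0111 for *Gls2* (HFCFD8W+T10D against HFCFD2W) and 0.0216 for *Tdo2* (HFCFD12W+T10W against HFCFD8W+T10D). With a replicate block that of *Gls2* was 0.00723. With library totals alone *Sds* was at 0.0504 in HFCFD8W+T10D and *Agxt* at 0.0715 in HFCFD12W+T10W. That scaling moved the median log2 fold change of all genes from 0.01 to 0.19 in HFCFD8W+T10D and to 0.38 in HFCFD12W+T10W, and left 2023 genes higher and 382 lower against 1231 and 821, and 7049 and 962 against 3411 and 2960. Under it 5, 3 and 8 members were lower. With 1 mouse left out, *Sds* in HFCFD8W+T10D ran from -0.46 to 0.0677, and in the differences of effects *Sds* from -0.17 to 0.36 and *Gls2* from -0.12 to 0.0422 (HFCFD8W+T10D against HFCFD2W), and *Tdo2* from -0.18 to 0.22 and *Cth* from -0.17 to 0.00135 (HFCFD12W+T10W against HFCFD8W+T10D). In Cre- livers *Tat* ran from -0.45 to 0.0378 and *Cth* from -0.0473 to 0.10 (HFCFD8W+T10D against HFCFD2W), and *Cth* from -0.11 to 0.0259 and *Hgd* from -0.12 to 0.0368 (HFCFD12W+T10W against HFCFD8W+T10D).

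Same-number correlations of deviations between the genotypes ran from -0.33 to 0.20, and 2 of 14 replicate numbers correlated best with their own. Whether mice of the same number shared a litter or batch is not stated in the labels. With the replicate block 374 genes were higher and 350 lower in HFCFD2W, where 952 and 895 passed without it, and 4 members were lower in place of 5, since *Cth* lost its call (adjusted p = 0.0847). With it 328 genes had a higher and 575 a lower effect in HFCFD8W+T10D than in HFCFD2W, against 577 and 880, and 414 a lower effect in HFCFD12W+T10W than in HFCFD8W+T10D, against 712, which was 445 without the low-count filter and 374 with upper quartile scaling. That scaling gave 1464 lower against 2249 for HFCFD12W+T10W and HFCFD2W, and the joint fit gave 1976 higher and 1541 lower in HFCFD8W+T10D. *Hgd* in HFCFD8W+T10D passed with DESeq2 (adjusted p = 0.042) and in the joint fit (0.00927). *Agxt* in HFCFD12W+T10W passed with the joint fit (0.0348) and the block (0.034). No member had fewer than 409 counts in any liver, so that depth set no limit on its detection.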
